A study of Arabidopsis thaliana with 18 samples.

Results

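Abscisic acid is the plant hormone that sets seed maturation and dormancy, and its level follows the balance between the enzymes that make it and those that break it down. The 10 Arabidopsis thaliana genes described here encode those enzymes and were taken by locus identifier, without regard to their expression. They are ABA1, NCED3, NCED5, NCED6, NCED9, ABA2 and AAO3 for synthesis and CYP707A1, CYP707A2 and CYP707A3 for breakdown. All 10 were found among the 33602 genes of the second set of libraries and among the 33201 loci of the first set.

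Seeds were taken at 9 to 10 days after flowering from plants with T-DNA insertions in both BADC1 and BADC3, called the double knockout here, and from wild type (Col-0), and polyA RNA was sequenced in 18 libraries, 3 in each of 6 groups. BADC1 and BADC3 encode proteins that resemble the biotin carrier of the plastid acetyl-CoA carboxylase and restrain that enzyme, and the study set out to describe the metabolism of seeds in which their loss raises oil. In the second set the groups are AtBDtr (double knockout), AtWTtr (wild type), AtBD (double knockout) and AtWT (wild type), and in the first set they are badc-tdna13 (double knockout) and COL0 (wild type). The study also transformed both genotypes with a histidine and FLAG tagged ribosomal protein, HF-RPL18, under a soybean glycinin promoter, which drives storage protein in seeds, and recovered ribosome-bound RNA with an anti-FLAG gel, but no sample label spells out "tr", so AtBDtr and AtWTtr are called the tr libraries. Nothing states that libraries of a group came from separate plants, so p-values measure only the spread between these libraries, which may be technical.

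Library totals ran from 16977673 to 32547007 counts in the second set and from 9546528 to 11574156 fragments in the first. TMM scaling put the effective total above the count total in every AtBD and AtWT library and below it in every tr library. For AtWT replicate 1 it was 48161227 against 32547007 counts, and for AtWTtr replicate 3 it was 14301195 against 22365598 counts. Levels in CPM, and overlaps read from them, rest on this scaling. BADC3 averaged 0.310 ± 0.337 CPM (counts scaled to library size by TMM) in AtBD and 72.5 ± 8.33 CPM in AtWT, and 0.269 ± 0.178 CPM in AtBDtr and 85.1 ± 17.4 CPM in AtWTtr (SD, n = 3 each). BADC1 averaged 1.96 ± 0.566 CPM in AtBD and 70.7 ± 8.09 CPM in AtWT. Embryo storage and oil body genes were abundant in every library of the second set, with a summed level of the 9 embryo markers between 25827 and 146809 CPM. In the first set the libraries numbered 2 of badc-tdna13 and COL0 held the same fragments at all 17287 loci compared. The labels do not tell that library's genotype, so the first set was tested on libraries 0 and 1 only.

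The pathway begins in the plastid. ABA1 is zeaxanthin epoxidase, which supplies the epoxidised carotenoids. The NCED proteins cleave these to xanthoxin, the committed and usually limiting step; in Arabidopsis seeds NCED6 is known from the endosperm and NCED9 from the testa and embryo, while NCED3 is the gene induced by drought in vegetative tissue. ABA2 turns xanthoxin into abscisic aldehyde in the cytosol, and AAO3 oxidises the aldehyde to abscisic acid. The CYP707A proteins are cytochrome P450 enzymes that hydroxylate abscisic acid and so start its breakdown; CYP707A1 is known from mid-maturation seeds and CYP707A2 from late maturation and imbibition.

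The sequences just upstream of 6 of these genes are shown because they are the genes whose levels the results below turn on, or, for CYP707A3, because its window is most readily compared with that of CYP707A1. Each run is the 250 bases before the annotated gene start, read 5′ to 3′ on the gene's strand from the RefSeq genome TAIR10.1. Capitals mark matches on either strand to the abscisic acid response element core (ACGTG), the G-box (CACGTG), the RY element of seed promoters (CATGCA) and the dehydration response element core (CCGAC). Every G-box holds the response element core on both strands, so each was counted under both names.
CYP707A1 (chr4:10521009-10521258, plus strand): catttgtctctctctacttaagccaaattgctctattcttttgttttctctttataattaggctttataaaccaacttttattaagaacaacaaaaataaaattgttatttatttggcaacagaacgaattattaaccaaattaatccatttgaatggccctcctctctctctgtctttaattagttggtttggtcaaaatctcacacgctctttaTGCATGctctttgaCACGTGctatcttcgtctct
CYP707A3 (chr5:18371022-18371271, minus strand): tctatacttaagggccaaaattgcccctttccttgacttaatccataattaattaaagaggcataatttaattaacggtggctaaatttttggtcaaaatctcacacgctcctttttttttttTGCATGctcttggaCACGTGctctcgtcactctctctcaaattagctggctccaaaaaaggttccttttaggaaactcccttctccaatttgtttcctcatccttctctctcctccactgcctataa
CYP707A2 (chr2:12499724-12499973, minus strand): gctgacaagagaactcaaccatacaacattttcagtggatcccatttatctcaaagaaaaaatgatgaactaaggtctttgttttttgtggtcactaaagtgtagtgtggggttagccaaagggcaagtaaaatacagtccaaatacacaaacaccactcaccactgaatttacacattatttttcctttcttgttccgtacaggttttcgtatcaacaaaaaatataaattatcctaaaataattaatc
NCED6 (chr3:8761169-8761418, plus strand): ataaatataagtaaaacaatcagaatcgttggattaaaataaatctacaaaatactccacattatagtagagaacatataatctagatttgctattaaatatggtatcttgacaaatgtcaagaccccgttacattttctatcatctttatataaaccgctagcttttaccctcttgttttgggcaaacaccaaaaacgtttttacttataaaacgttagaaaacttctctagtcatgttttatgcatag
NCED9 (chr1:29492876-29493125, minus strand): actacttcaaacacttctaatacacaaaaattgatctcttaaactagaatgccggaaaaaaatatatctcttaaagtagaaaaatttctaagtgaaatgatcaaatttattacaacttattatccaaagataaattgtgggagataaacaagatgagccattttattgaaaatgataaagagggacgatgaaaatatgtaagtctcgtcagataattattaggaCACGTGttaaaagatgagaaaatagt
AAO3 (chr2:11601477-11601726, plus strand): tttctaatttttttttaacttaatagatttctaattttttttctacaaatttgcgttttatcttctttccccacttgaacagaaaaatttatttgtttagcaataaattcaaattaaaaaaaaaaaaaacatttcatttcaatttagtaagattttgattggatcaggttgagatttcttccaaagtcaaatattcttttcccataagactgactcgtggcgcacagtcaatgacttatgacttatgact

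CYP707A1 and CYP707A3 each held an RY element followed by a G-box, and the start of the G-box lay 14 bases after the start of the RY element in both. The RY element began at base -34 and the G-box at base -20 in CYP707A1, counting back from -1 just before the gene start, and at bases -127 and -113 in CYP707A3. Upstream of the RY element both windows held the same run of 23 bases, tttggtcaaaatctcacacgctc, starting at base -61 in CYP707A1 and at base -162 in CYP707A3. Of the 27443 windows of the genome, 186 (0.678%) held both an RY element and a G-box. In this order and at this spacing 9 held them, CYP707A1 and CYP707A3 among them. The spacing was taken from this pair, so the count is a description and no test. NCED9 held a G-box at base -26. The windows of CYP707A2, NCED6 and AAO3 held no match to any of the 4 motifs.

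Across all 10 genes, the response element core occurred in 4 windows (22.9% of all windows), the G-box in 3 (6.49%), the RY element in 2 (8.43%) and the dehydration element core in 1 (11.97%). ABA1 held the response element core at bases -131 and -8, and ABA2 the dehydration element core at base -10, in a window that overlaps another gene. NCED3 and NCED5 held none of the 4.

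**Figure D1:**
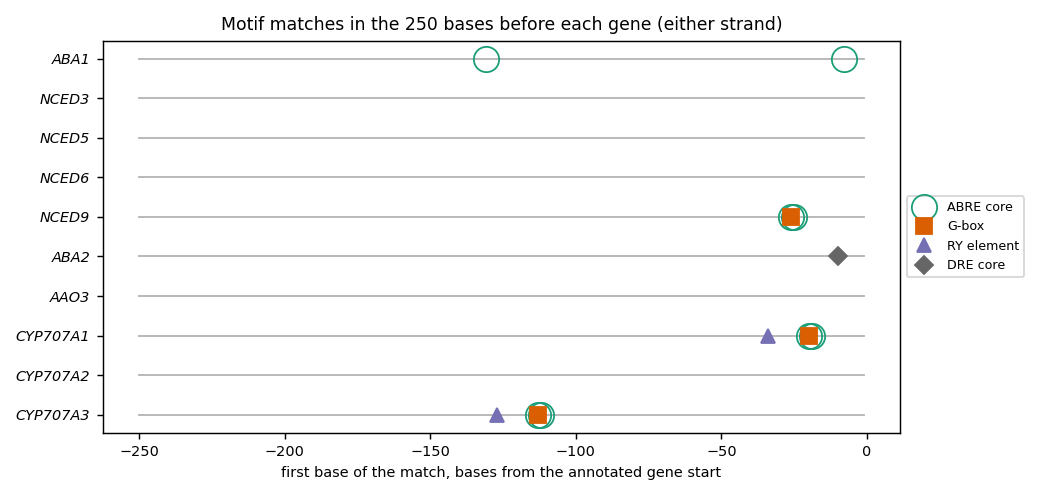
Positions of the 4 motifs in the 250 bases before each of the 10 genes; the horizontal axis is the distance in bases from the annotated gene start, and each symbol is a match on either strand. The RY element and G-box of CYP707A1 and CYP707A3 sit 14 bases apart, close to the gene start in CYP707A1 and farther from it in CYP707A3.

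The genes sit on 5 chromosomes. In TAIR10.1, NCED6 (AT3G24220) is a gene of 1 exon on chromosome 3 from 8761419 to 8763303, and NCED9 (AT1G78390) is a gene of 1 exon on chromosome 1 from 29490705 to 29492875. AAO3 (AT2G27150) lies on chromosome 2 from 11601727 to 11608450, with 9 to 11 exons, and 16.9% of its exonic bases are shared with AT2G27160 on the other strand. CYP707A1 (AT4G19230) has 7 exons on chromosome 4 from 10521259 to 10523961, CYP707A2 (AT2G29090) has 5 to 9 exons on chromosome 2 from 12494826 to 12499723, and CYP707A3 (AT5G45340) has 5 or 6 exons on chromosome 5 from 18368532 to 18371021. ABA1 (AT5G67030) has 16 exons on chromosome 5 from 26753469 to 26757402. ABA2 (AT1G52340) has 2 exons on chromosome 1 from 19489794 to 19491650, and 39.7% of its exonic bases are shared with AT1G52330 and AT1G07803. The counts carry no strand, so reads of AAO3 and ABA2 that fall in both genes there cannot be assigned to either. In the second set the per-library files count ambiguous reads apart from the genes. Levels per kilobase use the full exonic length, so those of AAO3 and ABA2 may be understated. NCED3 (AT3G14440, chromosome 3, 4831286 to 4834015) and NCED5 (AT1G30100, chromosome 1, 10571310 to 10573365) have 1 exon each.

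Per kilobase of exon, the top and the bottom of the order of the genes were shared by all 12 libraries of the second set, while the middle ranks changed. ABA1 and ABA2 held ranks 1 and 2 in every library, at 17.8 to 30.8 CPM per kilobase for ABA1 and 20.3 to 32.8 CPM per kilobase for ABA2. Their ranges overlap, so neither stood above the other. NCED9, CYP707A1, NCED6 and CYP707A2 traded ranks 3 to 7, and AAO3 held rank 6 or 7 at 0.510 to 1.98 CPM per kilobase. NCED3, CYP707A3 and NCED5 came last in every library, none above 0.939 CPM per kilobase. Of the 10 genes, 8 passed the filter on low counts in each set; NCED5 and CYP707A3 did not and were not tested.

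**Figure D2:**
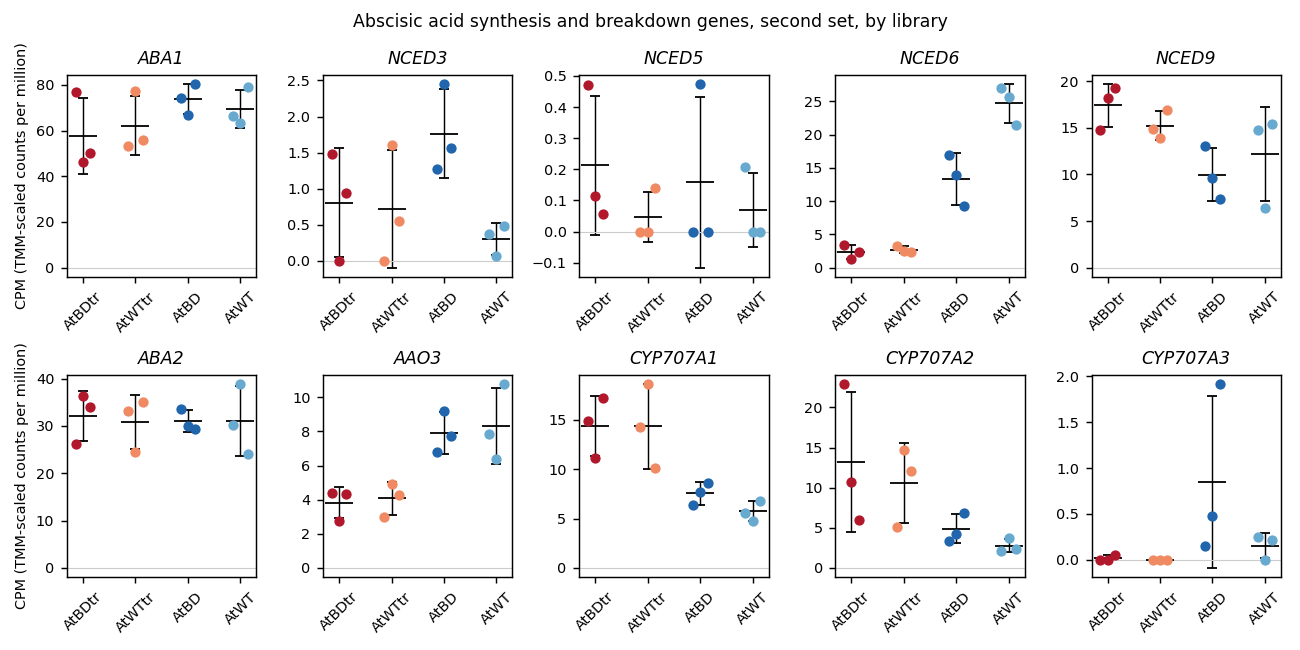
Level of each of the 10 genes in the 12 libraries of the second set, in TMM-scaled CPM; points are libraries, the dash is the group mean and the bar is 1 SD (n = 3). NCED6 and AAO3 lie lower, and CYP707A1 higher, in both groups of tr libraries, while ABA1 and ABA2 overlap in all 4 groups.

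The tr libraries were compared with the other libraries of the same genotype; since no label spells out what tr is, the differences are given as differences between kinds of library only. In both genotypes the last synthesis gene, AAO3, and the endosperm gene NCED6 were lower in the tr libraries, and the breakdown genes CYP707A1 and CYP707A2 were higher. In AtWTtr against AtWT, edgeR called 2 of the 8 tested genes higher and 2 lower at an adjusted p under 0.05, where 34.1% of all 19376 genes tested were called (15.2% higher and 19.0% lower). AtBDtr against AtBD gave the same counts, with 29.7% of all genes called (12.9% higher and 16.8% lower). The libraries of AtWTtr and AtWT did not overlap for 2 genes that were higher and 2 that were lower of the 8, against 48.6% of all genes (20.9% higher and 27.8% lower). Between AtBDtr and AtBD they likewise did not overlap for 2 that were higher and 2 that were lower, against 47.0% of all genes (21.4% higher and 25.5% lower). The median log2 fold change of the 8 genes was 0.16 in AtWTtr against AtWT (-0.04 over all genes) and -0.15 in AtBDtr against AtBD (-0.03 over all genes). With a background this high the counts alone say little, and the sizes carry the description.

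NCED6 had 3.28, 2.50 and 2.38 CPM in AtWTtr, against 27.1, 25.6 and 21.4 CPM in AtWT. In the double knockout it had 3.44, 1.33 and 2.43 CPM in AtBDtr, against 16.9, 13.9 and 9.23 CPM in AtBD. Every tr library lay below every other library. In AtWTtr against AtWT, NCED6 fell by 3.18 on the log2 scale (SE 0.33, edgeR adjusted p = 2.22e-06), the largest change of the 8 tested genes, and in AtBDtr against AtBD it fell by 2.49 (SE 0.32, adjusted p = 3.00e-05). Both calls held without any 1 library.

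Markers of other seed and fruit tissues moved with NCED6. The summed level of the 11 seed coat markers was 79.4 to 120 CPM in AtWTtr and 707 to 1091 CPM in AtWT, and 77.9 to 134 CPM in AtBDtr and 339 to 616 CPM in AtBD. The 5 silique wall markers summed to 8.15 to 10.1 CPM in AtWTtr and 58.6 to 74.1 CPM in AtWT, and to 8.76 to 9.81 CPM in AtBDtr and 44.0 to 64.2 CPM in AtBD. Of the 9 endosperm markers, EPR1 alone made up nearly the whole sum and was called higher in both tr groups. Without EPR1 the other 8 summed to 1.48 to 5.60 CPM in AtWTtr and 44.5 to 48.4 CPM in AtWT, and to 1.64 to 4.80 CPM in AtBDtr and 10.7 to 20.1 CPM in AtBD; FIS2 and PHE1 were at 0 in both tr groups and MEA also in AtWTtr. The summed embryo markers were 87611 to 134424 CPM in AtWTtr and 25827 to 33029 CPM in AtWT, and 81799 to 146809 CPM in AtBDtr and 34821 to 40074 CPM in AtBD. By count, edgeR called 9 of 10 tested seed coat markers, 4 of 5 silique wall markers and 3 of 5 endosperm markers lower in AtWTtr, where 19.0% of all genes were called lower. In AtBDtr it called 8 of 10 seed coat, 5 of 5 silique wall and 3 of 5 endosperm markers lower, where 16.8% of all genes were. Of the 9 embryo markers, 5 were called higher and 2 lower in each genotype, where 15.2% of all genes were called higher in AtWTtr and 12.9% in AtBDtr. The part of these tissues in the differences of the 10 genes was not tested, and in bulk libraries fewer cells of a type and less RNA per cell cannot be told apart.

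AAO3 had 3.01, 4.94 and 4.27 CPM in AtWTtr, against 7.83, 6.38 and 10.8 CPM in AtWT. The double knockout gave 4.38, 2.77 and 4.35 CPM in AtBDtr, against 6.77, 9.22 and 7.71 CPM in AtBD. The groups do not overlap in either genotype, and the tr libraries lay near 4 CPM in both. AAO3 fell by 1.03 on the log2 scale in AtWTtr against AtWT (SE 0.31, adjusted p = 0.0165) and by 1.04 in AtBDtr against AtBD (SE 0.31, adjusted p = 0.0179). The call was lost in wild type without AtWTtr replicate 1 (adjusted p = 0.0572) or AtWT replicate 3 (adjusted p = 0.102), and in the double knockout without AtBDtr replicate 2 (adjusted p = 0.0745) or AtBD replicate 2 (adjusted p = 0.0779).

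CYP707A1 had 14.3, 18.6 and 10.1 CPM in AtWTtr, against 5.61, 4.79 and 6.80 CPM in AtWT. It had 14.9, 11.1 and 17.2 CPM in AtBDtr, against 6.34, 7.68 and 8.63 CPM in AtBD. All tr libraries lay above all others on the TMM scale. On plain library totals the groups overlap in both genotypes, so the separation depends on the scaling. AtWTtr replicate 3 had 144 counts of 22365598, against 223 of 21517449 in AtWT replicate 3. AtBDtr replicate 2 had 193 counts of 26037413, against 198 of 17700289 in AtBD replicate 3. CYP707A1 rose by 1.32 on the log2 scale in AtWTtr against AtWT (SE 0.27, adjusted p = 0.00132) and by 0.93 in AtBDtr against AtBD (SE 0.27, adjusted p = 0.0152). The call in the double knockout was lost without AtBDtr replicate 3 (adjusted p = 0.0685) or AtBD replicate 1 (adjusted p = 0.0723).

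CYP707A2 was the most variable of the called genes. Its levels were 5.06, 14.7 and 12.1 CPM in AtWTtr, against 2.16, 3.70 and 2.41 CPM in AtWT, without overlap on the TMM scale. On plain library totals these groups overlap, with 74 counts of 16977673 in AtWTtr replicate 1 and 119 of 23826224 in AtWT replicate 2. In the double knockout they were 22.9, 10.7 and 5.95 CPM in AtBDtr, against 3.42, 4.27 and 6.88 CPM in AtBD, where AtBDtr replicate 3 lay below AtBD replicate 3. CYP707A2 rose by 1.95 on the log2 scale in AtWTtr against AtWT (SE 0.48, adjusted p = 0.00632) and by 1.43 in AtBDtr against AtBD (SE 0.48, adjusted p = 0.0342). The second call was lost without AtBDtr replicate 1 (log2 fold change 0.75, adjusted p = 0.245), AtBDtr replicate 2 (adjusted p = 0.0592), AtBD replicate 1 (adjusted p = 0.126) or AtBD replicate 2 (adjusted p = 0.108), and with no filter on low counts (adjusted p = 0.0537).

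CYP707A3 was counted almost only outside the tr libraries. AtWTtr held 0 counts in all 3 libraries, against 12, 0 and 7 counts in AtWT, which is at least 2.49-fold lower in CPM when a floor of 3 counts over the group is used. AtBDtr held 0, 0 and 1 counts, against 4, 12 and 44 counts in AtBD, a ratio of 0.0256 with an exact 95% interval of 0.000638 to 0.148 that covers counting error only. AtBD replicate 3 holds 44 of the 60 counts of AtBD.

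NCED9, the NCED gene of testa and embryo, did not pass the threshold in either genotype. It had 14.8, 18.2 and 19.2 CPM in AtBDtr, against 13.0, 9.58 and 7.32 CPM in AtBD, with no overlap on the TMM scale (log2 fold change 0.80, SE 0.30, adjusted p = 0.0526). On plain library totals these groups overlap, with 189 counts of 18677584 in AtBDtr replicate 1 and 338 of 22052175 in AtBD replicate 1. In wild type it had 14.9, 13.9 and 16.9 CPM in AtWTtr, against 14.8, 6.41 and 15.4 CPM in AtWT, which overlap (log2 fold change 0.32, SE 0.30, adjusted p = 0.438). NCED9 passed the threshold in the double knockout when only the 6 libraries compared were fitted (adjusted p = 0.0338), with no filter on low counts (adjusted p = 0.0353) and without AtBD replicate 1 (adjusted p = 0.0385).

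ABA1 and ABA2, which stand before and after the NCED step, did not pass the threshold. Their overlap depends on the scaling. On plain library totals, every tr library lay below every other library of its genotype for both genes. ABA1 had 1203 counts of 20738820 in AtWTtr replicate 2, against 2038 of 23826224 in AtWT replicate 2. ABA2 had 617 counts of 19785751 in AtBDtr replicate 3, against 758 of 20433289 in AtBD replicate 2. ABA1 had 53.3, 77.2 and 56.0 CPM in AtWTtr, against 66.2, 63.4 and 78.8 CPM in AtWT, and its 95% interval of the log2 fold change ran from -0.61 to 0.29. The interval of ABA1 in AtBDtr against AtBD ran from -0.81 to 0.09, around a log2 fold change of -0.36 (adjusted p = 0.223); without AtBDtr replicate 1 it was -0.64 and passed the threshold (adjusted p = 0.0408). ABA2 ranged from 24.4 to 35.1 CPM in AtWTtr and from 24.0 to 38.8 CPM in AtWT, with an interval of -0.45 to 0.44. In the double knockout ABA2 ranged from 26.2 to 36.2 CPM in AtBDtr and from 29.3 to 33.6 CPM in AtBD, with an interval of -0.39 to 0.50. NCED3 had 0, 25 and 8 counts in AtWTtr and 18, 2 and 16 counts in AtWT, too few to place its change more closely than between -1.34 and 3.77 on the log2 scale. NCED5 held 0, 0 and 2 counts in AtWTtr and 10, 0 and 0 counts in AtWT, a ratio of 0.508 with an exact 95% interval of 0.0541 to 2.38.

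**Figure D3:**
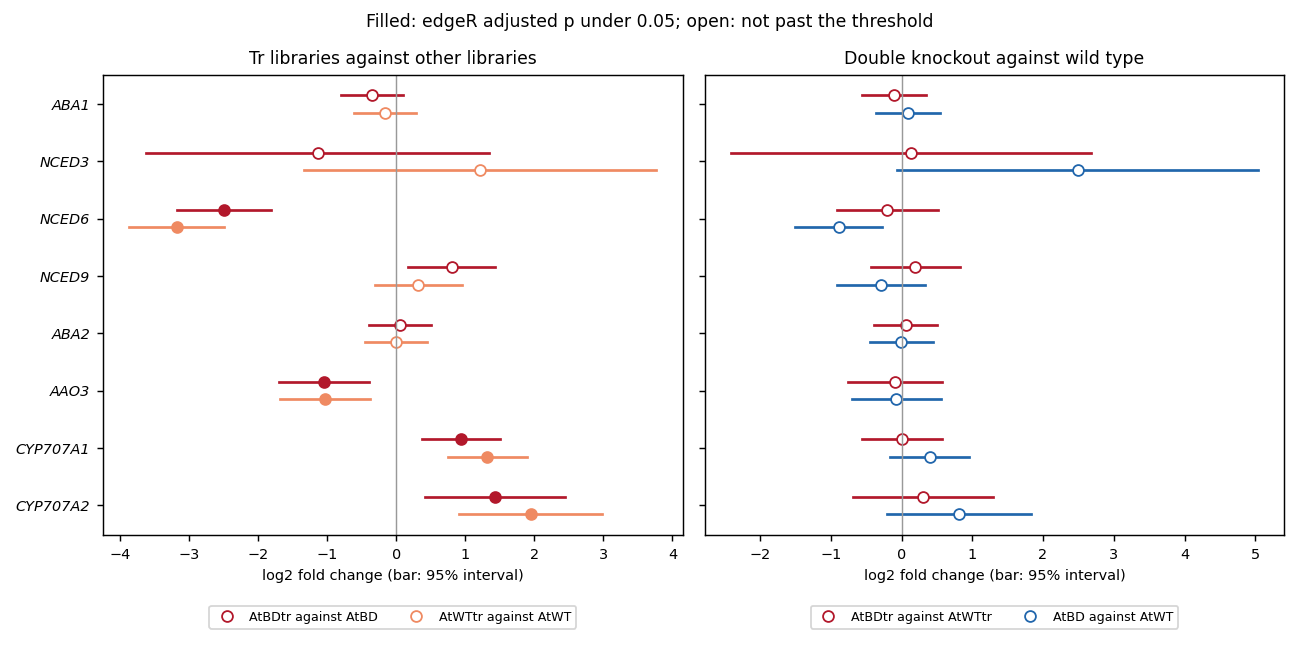
Log2 fold changes of the 8 tested genes in the second set with 95% intervals; filled points passed an edgeR adjusted p under 0.05 and open points did not. On the left, tr libraries against the others, NCED6 and AAO3 lie below 0 and CYP707A1 and CYP707A2 above 0 in both genotypes; on the right, double knockout against wild type, no gene passed.

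Which NCED gene dominated differed between the kinds of library. Of the summed NCED level per kilobase (NCED3, NCED5, NCED6 and NCED9), NCED6 made up 13.5% to 20.2% in AtWTtr and 60.9% to 82.1% in AtWT, and 7.71% to 19.4% in AtBDtr and 55.4% to 58.2% in AtBD. NCED9 made up 76.9% to 83.6% in AtWTtr and 72.4% to 91.7% in AtBDtr. These are shares of a sum, so they do not show that NCED9 itself rose. The sum of the 3 CYP707A genes divided by the sum of the 4 NCED genes, both in CPM per kilobase, was 1.04 to 1.82 in AtWTtr and 0.17 to 0.23 in AtWT, and 1.02 to 1.79 in AtBDtr and 0.29 to 0.90 in AtBD. The ranges do not overlap within either genotype of the second set. In the first set, counted otherwise and with no tr label, the ratio was 0.961 and 0.958 in COL0 libraries 0 and 1. It was 1.13 and 0.643 in badc-tdna13 libraries 0 and 1. In the CYP707A sum, CYP707A1 held 47.8% to 75.7% in AtWTtr and 58.8% to 73.9% in AtWT.

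**Figure D4:**
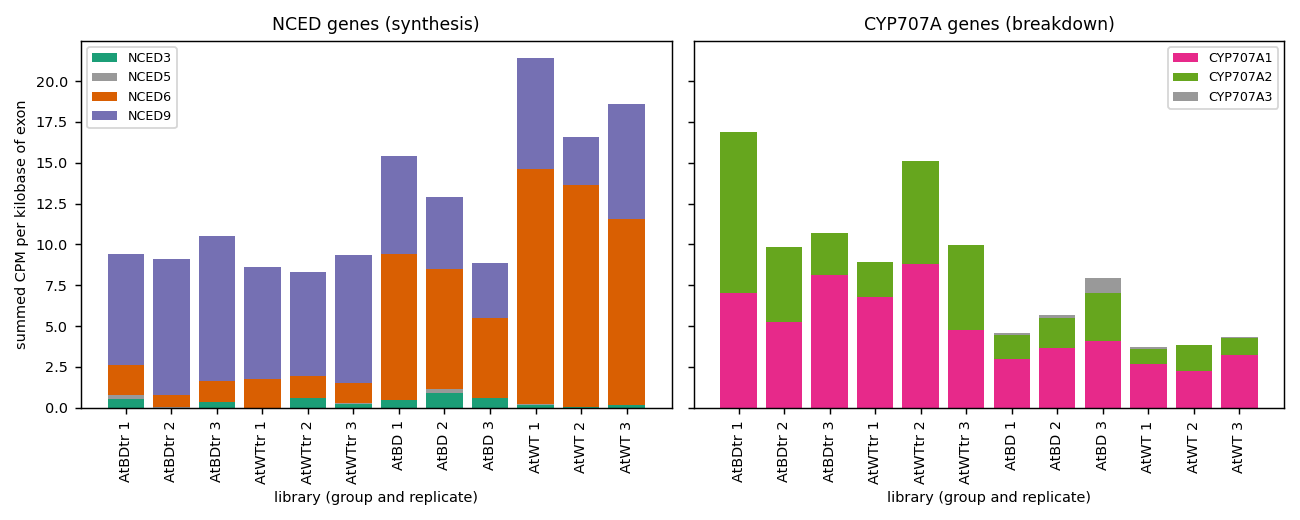
Summed level of the NCED genes (left) and the CYP707A genes (right) in each library of the second set, in CPM per kilobase of exon, stacked by gene. NCED6 forms most of the NCED bar in AtBD and AtWT and little of it in AtBDtr and AtWTtr, where NCED9 forms most.

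The comparison of genotypes in the second set asks whether loss of BADC1 and BADC3 changed these genes in the seed. In AtBD against AtWT, edgeR called 0 of the 8 genes, with 1 at an unadjusted p under 0.05 and 0 called by DESeq2, where 0.0619% of all genes were called. Over all 19376 genes, 1181 had an unadjusted edgeR p under 0.05 there. In AtBDtr against AtWTtr edgeR called 0 of the 8, with 0 at an unadjusted p under 0.05 and 0 called by DESeq2, where 0.0516% of all genes were called. Here 986 of all 19376 genes had an unadjusted edgeR p under 0.05. None of the 8 was free of overlap between AtBDtr and AtWTtr, against 7.19% of all genes. With so few genes called anywhere, a count of 0 among 8 says little about these genes, and the intervals say more.

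NCED6 was the gene at an unadjusted p under 0.05. The levels given above were lower in all 3 AtBD libraries than in all 3 AtWT libraries, with means of 13.3 ± 3.87 CPM in AtBD and 24.7 ± 2.95 CPM in AtWT (SD, n = 3 each). The difference on the log2 scale was -0.89 (SE 0.29, 95% interval -1.50 to -0.27, edgeR unadjusted p = 0.00737, adjusted p = 0.527). Seed coat markers and the endosperm markers without EPR1 also had lower sums in every AtBD library than in every AtWT library, as given above. Of the seed coat markers 0 of 10 were called and 6 had an unadjusted p under 0.05, against 1181 of all 19376 genes. Their part in the level of NCED6 was not tested. In the tr libraries NCED6 averaged 2.40 ± 1.06 CPM in AtBDtr and 2.72 ± 0.489 CPM in AtWTtr, with an interval of the log2 fold change from -0.91 to 0.51.

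NCED3 was the other gene whose genotypes did not overlap. It had 1.27, 2.45 and 1.57 CPM in AtBD (33, 62 and 36 counts), against 0.374, 0.0622 and 0.488 CPM in AtWT (18, 2 and 16 counts). All 3 AtBD libraries were higher, and the difference of 2.49 on the log2 scale (SE 1.21, adjusted p = 0.830) did not pass the threshold. Of the 8 genes, 1 was higher and 1 lower without overlap between AtBD and AtWT, against 19.7% of all genes tested (8.79% higher and 10.9% lower). NCED3 overlapped in the tr libraries, with 19, 0 and 17 counts in AtBDtr and 0, 25 and 8 counts in AtWTtr.

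For the remaining tested genes the 95% intervals bound the genotype difference. In AtBD against AtWT they ran from -0.36 to 0.54 for ABA1, from -0.45 to 0.44 for ABA2, from -0.70 to 0.55 for AAO3 and from -0.92 to 0.33 for NCED9 on the log2 scale. For the breakdown genes they ran from -0.17 to 0.96 for CYP707A1 and from -0.20 to 1.84 for CYP707A2. CYP707A1 averaged 7.55 ± 1.15 CPM in AtBD and 5.73 ± 1.01 CPM in AtWT, and CYP707A2 averaged 4.86 ± 1.80 CPM in AtBD and 2.76 ± 0.828 CPM in AtWT (SD, n = 3 each). In the tr libraries the interval of CYP707A1 ran from -0.55 to 0.57 and that of CYP707A2 from -0.69 to 1.30.

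Whether the ratio of tr to other libraries differed between the genotypes was tested as an interaction. edgeR called 0 of the 8 genes, with 0 at an unadjusted p under 0.05 and 0 called by DESeq2. Over all genes it called 0 (0.0%), with 790 at an unadjusted p under 0.05 and 4 called by DESeq2. NCED6 had the difference 0.69 on the log2 scale (SE 0.44, 95% interval -0.25 to 1.62), CYP707A1 -0.39 (SE 0.38) and CYP707A2 -0.52 (SE 0.67).

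The first set compares the same genotypes in other libraries, counted with Cuffdiff. Apart from the ratio of the CYP707A sum to the NCED sum given above, its levels are not set beside those of the second set. Of the 8 genes tested in badc-tdna13 against COL0, libraries 0 and 1, edgeR called 2 higher and 0 lower, where 11.4% of all 18522 loci were called (5.79% higher and 5.59% lower). The called genes were ABA1 and AAO3, which stand at the head and the end of the synthesis chain. BADC3 fell by 4.16 on the log2 scale in the same fit (SE 0.31, adjusted p = 0.00623), while BADC1 is merged with a neighbouring gene there and was not matched.

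ABA1 had 74.0 and 87.0 CPM in badc-tdna13, against 52.1 and 51.2 CPM in COL0. It rose by 0.62 on the log2 scale (SE 0.15, adjusted p = 0.0470). AAO3 had 56.9 and 69.1 CPM in badc-tdna13, against 34.2 and 38.0 CPM in COL0, and rose by 0.79 (SE 0.16, adjusted p = 0.0325). Library 2, the same under both names, lay between the groups for both genes, at 62.8 CPM for ABA1 and 44.6 CPM for AAO3. With all 6 libraries edgeR called 0 of 18560 loci, these 8 genes included, with 973 loci and 2 of the 8 genes at an unadjusted p under 0.05, and the adjusted p was 0.818 for both ABA1 and AAO3. That fit holds library 2 in both groups, which draws differences toward 0 and adds to the spread within groups. It also left BADC3 uncalled (log2 fold change -1.70, SE 0.99, edgeR adjusted p = 0.818). Its lack of calls therefore says little about ABA1 and AAO3. Leaving out a library leaves 1 in its group, so that the spread comes from the other pair alone and the lone library is assumed to vary like it. Such fits called 3 and 20 loci without a COL0 library and 4926 and 7575 without a badc-tdna13 library, so they say little about single genes. Without COL0 replicate 0 the adjusted p was 0.391 for ABA1 and 0.330 for AAO3, and without COL0 replicate 1 it was 0.453 for ABA1 and 0.326 for AAO3. The log2 fragments of libraries 0 and 1 correlated across loci at 0.928 in badc-tdna13 and at 0.987 in COL0. Between badc-tdna13 and COL0 these libraries correlated at 0.912 to 0.927, so the badc-tdna13 libraries were hardly closer to each other than to COL0.

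The other 6 tested genes did not pass the threshold. NCED3 had 21 and 28 fragments (2.604 ± 0.431 CPM, SD, n = 2) in badc-tdna13, against 9 and 8 fragments (0.808 ± 0.109 CPM, SD, n = 2) in COL0, a difference of 1.66 on the log2 scale (SE 0.42, adjusted p = 0.0517). CYP707A1 had 6.57 and 5.19 CPM in badc-tdna13, against 10.0 and 10.4 CPM in COL0, a difference of -0.82 (SE 0.22, adjusted p = 0.0597). ABA2 had 28.5 and 25.5 CPM in badc-tdna13, against 33.9 and 36.0 CPM in COL0 (log2 fold change -0.39, SE 0.14, adjusted p = 0.121). In all 3 the groups do not overlap in libraries 0 and 1. Library 2, the same under both names, did not lie between the groups for these genes. It had 2.44 CPM for NCED3 and 6.43 CPM for CYP707A1, each within the badc-tdna13 values. For ABA2 it had 22.5 CPM, below both groups. The separation therefore rests on leaving library 2 out.

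NCED6 had 28.3 and 24.5 CPM in badc-tdna13, against 23.4 and 24.4 CPM in COL0, with an interval of the log2 fold change from -0.23 to 0.48. NCED9 had 11.0 and 10.7 CPM in badc-tdna13, against 9.24 and 9.14 CPM in COL0, with an interval from -0.22 to 0.66. CYP707A2 had 48.2 and 22.3 CPM in badc-tdna13, against 26.4 and 26.0 CPM in COL0, so library 0 of badc-tdna13 stood alone above the rest; without it the log2 fold change was -0.23, and without library 1 it was 0.83, each with 1 library left in badc-tdna13. CYP707A3, not tested, had 2 and 4 fragments in badc-tdna13 and 7 and 15 in COL0, and NCED5 had 5 and 1 in badc-tdna13 and 2 and 2 in COL0. Tissue markers differed in this fit as well. Of all loci, 5.79% were called higher and 5.59% lower. Of the tested seed coat markers 1 of 10 was called higher and 4 lower, and 2 of 6 embryo markers, WRI1 and L1L, were called lower. Of 5 silique wall markers 1 was called higher and 1 lower, and of 3 endosperm markers 0 were called. The part of these tissues was not tested.

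**Figure D5:**
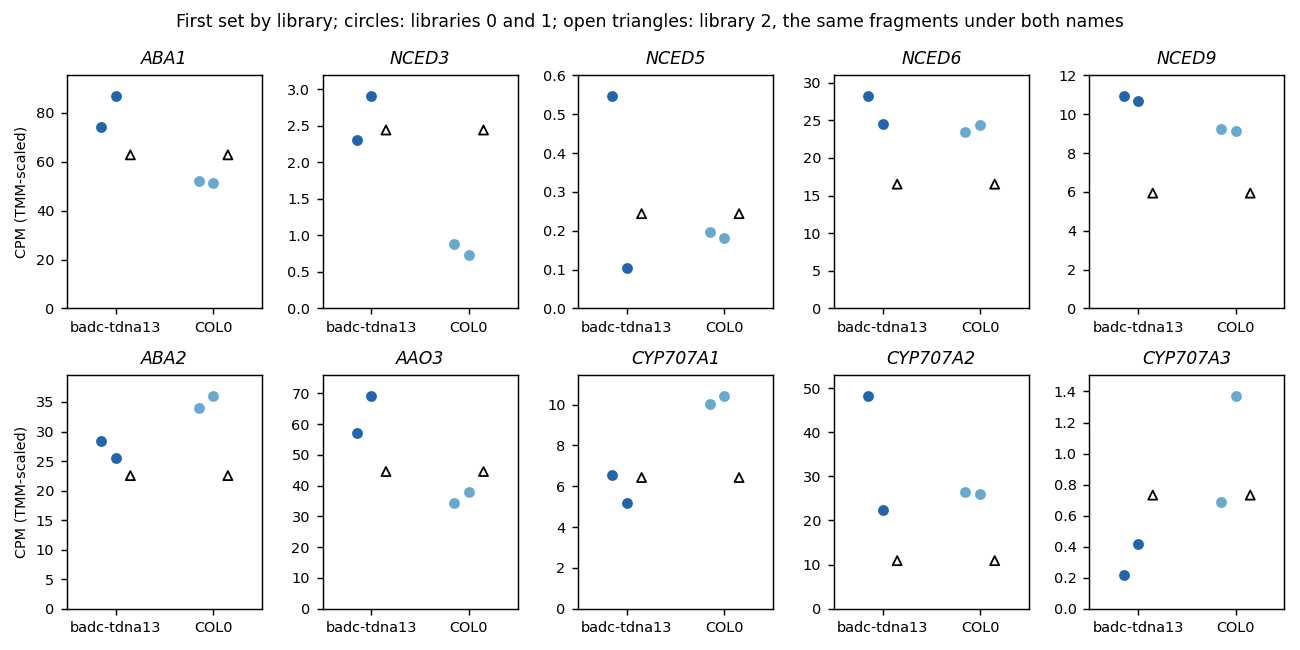
Level of each of the 10 genes in the first set, in TMM-scaled CPM; circles are libraries 0 and 1, and open triangles are library 2, which holds the same fragments under both names. ABA1 and AAO3 lie higher in both badc-tdna13 circles than in both COL0 circles, with the triangle between them.

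Set side by side, the genotype values of the sets differ in direction for some genes, and that difference was not tested. NCED6 had a log2 fold change of -0.89 in AtBD against AtWT and 0.12 in badc-tdna13 against COL0. CYP707A1 had 0.40 in AtBD against AtWT and -0.82 in badc-tdna13 against COL0. NCED3 was higher in every double knockout library of both tested fits outside the tr libraries, without passing the threshold in either.

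The steps around these 10 genes were examined with further lists, whose counts stand against the shares of all genes called: 34.1% in AtWTtr against AtWT (15.2% higher and 19.0% lower), 29.7% in AtBDtr against AtBD (12.9% higher and 16.8% lower) and 11.4% in badc-tdna13 against COL0 (5.79% higher and 5.59% lower). The enzymes of carotenoid supply gave 2 higher and 5 lower of 13 in AtWTtr against AtWT, and 1 higher and 3 lower of 13 in AtBDtr against AtBD, the second near the 29.7% of all genes called. PSY, phytoene synthase, which commits precursors to carotenoids, fell by 1.69 on the log2 scale in AtWTtr (SE 0.25, adjusted p = 8.39e-05) and by 1.60 in AtBDtr (SE 0.25, adjusted p = 0.000183). BCH1, a carotene hydroxylase that feeds zeaxanthin to ABA1, fell by 1.54 in AtWTtr (SE 0.22, adjusted p = 6.92e-05) and by 1.51 in AtBDtr (SE 0.23, adjusted p = 0.000119). The isomerase CRTISO rose by 1.23 in AtWTtr and the desaturase PDS fell by 0.997 in AtBDtr. In badc-tdna13 against COL0, 2 of 10 tested were called higher (5.79% of all loci), the hydroxylases BCH2 (log2 fold change 1.99, SE 0.31, adjusted p = 0.0170) and BCH1 (0.68, SE 0.15, adjusted p = 0.0404).

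Relatives of the 10 genes and the cofactor enzyme gave 1 higher and 1 lower of 10 in AtWTtr against AtWT, and 1 higher and 2 lower of 10 in AtBDtr against AtBD, where 34.1% and 29.7% of all genes were called. AAO4, an aldehyde oxidase of siliques, averaged 16.2 ± 5.72 CPM in AtWTtr and 183 ± 38.7 CPM in AtWT, and 15.4 ± 3.74 CPM in AtBDtr and 126 ± 14.6 CPM in AtBD. It fell by 3.49 (SE 0.27, adjusted p = 1.33e-07) and by 3.04 (SE 0.27, adjusted p = 4.82e-07) on the log2 scale. AAO1, another aldehyde oxidase, rose by 2.01 in AtWTtr (adjusted p = 0.0479) and by 2.35 in AtBDtr (adjusted p = 0.0307). The remaining CYP707A gene, CYP707A4, had 3 counts in AtBDtr and 75 in AtBD, a ratio of 0.0615 with an exact 95% interval of 0.0124 to 0.187. In the first set 0 of 6 tested were called by edgeR, with 3 at an unadjusted p under 0.05, against 5699 of all 18522 loci.

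Abscisic acid is also stored as a glucose ester. Of the 6 genes of conjugation and release, 0 were called higher and 3 lower in AtWTtr, and 0 higher and 2 lower in AtBDtr, where 19.0% of all genes were called lower in AtWTtr and 16.8% in AtBDtr. BGLU18, a glucosidase that frees abscisic acid from the ester, had 2 counts in AtWTtr and 233 in AtWT, a ratio of 0.0218 with an exact 95% interval of 0.00263 to 0.0797. It averaged 0.397 ± 0.456 CPM in AtBDtr and 5.97 ± 1.70 CPM in AtBD and fell by 3.86 on the log2 scale (SE 0.72, adjusted p = 0.000787). The glucosyltransferase UGT71B6 had 2 counts in AtWTtr and 104 in AtWT, a ratio of 0.0489 with an exact 95% interval of 0.00584 to 0.181. UGT71B8 fell by 0.87 in AtWTtr and UGT71B7 by 0.72 in AtBDtr.

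Of 5 tested transporters, 1 was called higher and 2 lower in AtWTtr, and 1 higher and 1 lower in AtBDtr, where 34.1% of all genes were called in AtWTtr and 29.7% in AtBDtr. ABCG25, an exporter of abscisic acid, averaged 3.62 ± 1.30 CPM in AtWTtr and 25.7 ± 4.39 CPM in AtWT, and 2.45 ± 0.308 CPM in AtBDtr and 20.1 ± 4.54 CPM in AtBD. It fell by 2.83 (SE 0.28, adjusted p = 1.70e-06) and by 3.02 (SE 0.29, adjusted p = 1.15e-06) on the log2 scale. ABCG31, an exporter known from the endosperm, fell by 2.96 in AtWTtr. NPF4.6, an importer, rose by 0.63 in AtWTtr (adjusted p = 0.0404) and by 0.99 in AtBDtr (adjusted p = 0.00388). In badc-tdna13 against COL0 the efflux carrier DTX50 was the 1 of 5 called (11.4% of all loci), higher by 1.82 on the log2 scale (SE 0.26, adjusted p = 0.0135).

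Among 16 tested receptors and SnRK2 kinases, 3 were called higher and 4 lower in AtWTtr, and 3 higher and 7 lower in AtBDtr, where 34.1% of all genes were called in AtWTtr and 29.7% in AtBDtr. The receptor PYL5 averaged 48.6 ± 7.57 CPM in AtWTtr and 15.7 ± 2.59 CPM in AtWT, and 45.3 ± 12.3 CPM in AtBDtr and 20.2 ± 1.88 CPM in AtBD, with log2 fold changes of 1.63 and 1.16. SNRK2.6, the kinase of guard cell closure, fell by 1.60 in AtWTtr and by 2.06 in AtBDtr. The receptor PYL6 fell by 2.50 in AtWTtr and PYL3 by 2.86 in AtBDtr. In badc-tdna13 against COL0, 3 of 14 tested were called higher (5.79% of all loci) and 2 lower (5.59%), among them PYL7 (1.04) and PYL3 (1.01) higher and SNRK2.6 (-1.01) lower on the log2 scale.

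Genes known to be induced by abscisic acid split in the tr comparison. Of 12, 5 were called higher and 5 lower in AtWTtr, and 4 higher and 5 lower in AtBDtr, where 34.1% of all genes were called in AtWTtr and 29.7% in AtBDtr. KIN1, a small stress protein gene, averaged 24.9 ± 6.36 CPM in AtWTtr and 129 ± 27.3 CPM in AtWT, and 21.9 ± 7.77 CPM in AtBDtr and 177 ± 20.4 CPM in AtBD. Its neighbour KIN2 fell by 2.52 in AtWTtr and by 2.71 in AtBDtr, and the homeodomain factor HB12 fell by 3.01 and by 2.95. The genes with the largest rises called in both genotypes, chosen after their values were seen, were RAB18, a dehydrin, and EM1, a late embryogenesis protein. RAB18 ranged from 273 to 1936 CPM in AtWTtr and from 20.1 to 70.3 CPM in AtWT, and from 183 to 2607 CPM in AtBDtr and from 51.6 to 79.5 CPM in AtBD. It rose by 4.39 on the log2 scale in AtWTtr (SE 1.12, adjusted p = 0.0152) and by 4.21 in AtBDtr (SE 1.11, adjusted p = 0.0202). EM1 rose by 4.08 in AtWTtr (SE 0.86, adjusted p = 0.00570) and by 4.57 in AtBDtr (SE 0.88, adjusted p = 0.00429). The summed embryo markers given above were also higher in the tr libraries, and their part in these rises was not tested. The first set was one-sided: 6 of 9 tested were called higher and 0 lower in badc-tdna13 against COL0, where 5.79% of all loci were called higher. As for every count in this set, none was called with all 6 libraries, a fit that holds library 2 in both groups. RD29B averaged 321 ± 51.7 CPM in badc-tdna13 and 87.6 ± 2.08 CPM in COL0 (SD, n = 2 each), a rise of 1.86 on the log2 scale (SE 0.18, adjusted p = 0.00684). HB7, a homeodomain factor, and HAI2, a phosphatase that acts in abscisic acid signalling, rose by 1.52 (SE 0.17, adjusted p = 0.00831) and by 1.40 (SE 0.15, adjusted p = 0.00780). In AtBD against AtWT and in AtBDtr against AtWTtr, edgeR called 0 genes of these 6 lists. Of all genes, 0.0619% were called in AtBD against AtWT and 0.0516% in AtBDtr against AtWTtr, so this count says little about the lists.

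The genes whose profiles lay nearest to these 10 were found by Pearson's r of log2 CPM over the 12 libraries of the second set, which all share the contrast of tr with other libraries and so correlate for many genes. Nearest to NCED6 were AT4G20860 (0.987), scpl35 (0.984) and CYP705A4 (0.983). Nearest to CYP707A1 were BOA (0.976), AT3G02890 (0.975) and WNK6 (0.973), and nearest to CYP707A2 were UP6 (0.977), AT5G41960 (0.975) and AT4G35160 (0.973). AAO3 lay nearest to OASC (0.968) and NCED9 to VPS54 (0.952). ABA1, ABA2 and NCED3, which did not pass the threshold in the tr comparison, had lower best values, at 0.923 for ABA1, 0.884 for ABA2 and 0.927 for NCED3.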

How the data were processed

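PolyA RNA of 18 libraries of developing seeds was analysed. TopHat, Cufflinks and Cuffdiff are named, with TAIR10 as the build and no versions, per the submitters' processing notes. In the second set the deposited values are raw counts per gene. They equal the unstranded column of the deposited per-library count files in 12 of 12 libraries, and 49.3% to 50.1% of stranded reads fell on 1 strand. Reads assigned to no single gene made up 5.93% to 25.8% and were left out. Among them, 0.72% to 1.50% of reads were ambiguous between genes. For the first set the authors deposited fragments per locus, which are estimated counts (1633 of 199206 values are not whole) and were rounded, and FPKM scaled by Cuffdiff, per the file headers. Loci were matched by identifier, and 475 identifiers that broke the genome order of the loci around them were not used.

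Counts were tested with edgeR 4.0.16 in R 4.3.3 (filterByExpr, TMM, quasi-likelihood test with robust estimation, Benjamini-Hochberg adjusted p under 0.05 over all genes tested). The 12 libraries of the second set shared 1 fit. The steps were tested on simulated data. Alternatives used DESeq2 1.42.0, limma 3.58.1, other filters and scaling, counts of 1 strand, a replicate block and leaving out each library. The 10 genes and the lists were chosen with earlier results of these data known. Of each further list the up to 3 called genes with the smallest adjusted p were named in each comparison, with all 10 genes, BADC1, BADC3 and the 3 nearest profiles of each tested gene; marker genes, and some nearest profiles, are given in sums and counts or by the first only. Per-kilobase levels use the exonic length in RefSeq TAIR10.1, whose coordinates are printed. Counting intervals and floors cover counting error only.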

Additional observations from a re-analysis of the deposited data

How the results depend on the processing

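Over all genes, AtBD against AtWT gave 73 calls with DESeq2, 26 with no filter, 288 when only the libraries compared were fitted and 6 to 8 with 1 library left out, against 12. AtBDtr against AtWTtr gave 21 calls by DESeq2 and 5 in a fit of the libraries compared, against 10, and the interaction gave 4 with DESeq2, against 0. The first set gave 0 calls with all 6 libraries, 609 with limma on log2(FPKM + 1), 581 on log2(FPKM + 0.1) and 3 to 7575 with 1 library left out, which leaves its group with 1 library assumed to vary like the other pair, against 2107. The fit with all 6 libraries holds library 2 in both groups, which draws differences toward 0, so its lack of calls says little. The cause of the other shifts was not tested. Of the 10 genes, the calls in AtBDtr against AtBD numbered 2 to 4 with 1 library left out, against 4. In the first set they numbered 0 with all 6 libraries and in both limma fits, 0 to 5 with 1 library left out, and 1 without robust estimation, an alternative chosen after seeing the data (ABA1, adjusted p = 0.0538). NCED3 passed there under a minimum of 1 CPM (adjusted p = 0.0415). With no filter the median of all genes in AtWTtr against AtWT was -0.19, against -0.04.

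Each change of sign was seen in a log2 fold change that had not passed the threshold. On counts of 1 strand AAO3 had 0.0079 and ABA2 0.17 in AtBD against AtWT; ABA2 had -0.10 in AtBDtr against AtBD, -0.0082 in AtBDtr against AtWTtr, 0.0723 in AtWTtr against AtWT and -0.18 in the interaction; in AtBDtr against AtWTtr NCED3 had -0.90 and CYP707A1 -0.0394. CYP707A1 in that comparison had -0.0025 with DESeq2, -0.0023 with RLE scaling and -0.0032 with only the libraries compared. With 1 library left out, the ranges that crossed 0 were, in AtBD against AtWT, -0.155 to 0.19 for ABA2 and -0.24 to 0.15 for AAO3; in AtBDtr against AtBD, -0.0594 to 0.16 for ABA2; in AtWTtr against AtWT, -0.14 to 1.79 for NCED3 and -0.16 to 0.19 for ABA2; in AtBDtr against AtWTtr, -0.36 to 0.0708 for ABA1, -0.61 to 1.48 for NCED3, -0.52 to 0.10 for NCED6, -0.0883 to 0.19 for ABA2, -0.28 to 0.10 for AAO3, -0.18 to 0.24 for CYP707A1 and -0.36 to 0.64 for CYP707A2; in the interaction, -0.13 to 0.22 for ABA2 and -0.24 to 0.16 for AAO3; and in the first set, -0.23 to 0.83 for CYP707A2.

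Replicate numbers did not pair the libraries: deviations of same-numbered libraries correlated above 0.1 in 1 of 3 pairs of AtBD and AtWT (0.168) and in 0 of 3 pairs of the 3 other comparisons. With the replicate block the calls numbered 10 in AtBD against AtWT, 7 in AtBDtr against AtWTtr, 5878 in AtWTtr against AtWT, 4852 in AtBDtr against AtBD and 0 in the interaction. CYP707A2 in AtBDtr against AtBD had adjusted p = 0.0664 with the block; with it ABA2 had 0.0063 in AtBD against AtWT and 0.0066 in AtWTtr against AtWT, and CYP707A1 -0.0102 in AtBDtr against AtWTtr. Numbers of the first set match no sample title, so no block was fitted there.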
